A study of Mus musculus with 24 samples.

Results

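Messenger RNAs of the mitochondrial ribosomal proteins were lower in wild-type gastrocnemius muscle after hindlimb unloading and in streptozotocin diabetes. The genes described here are the rows of the deposited tables whose symbol is Mrpl or Mrps followed by a number, with a mean estimated count of at least 10 over the 24 libraries. Of 36172 gene models, 80 had such a symbol and 76 reached that mean. The other 4 are the pseudogene rows Mrpl23-ps1, Mrpl48-ps, Mrps36-ps1 and Mrps36-ps2, which were listed at 0 in every library. Of the 76 genes, 49 encode proteins of the large subunit and 26 encode proteins of the small subunit. Mrps18a and Mrps30 sit in the large subunit despite their symbols. The remaining gene, Mrps36, carries a ribosomal name, but its protein is now known as a component of the 2-oxoglutarate dehydrogenase complex of the citric acid cycle.

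RNA sequencing was performed on C57BL/6 gastrocnemius, a calf muscle made mainly of fast fibres, in 6 groups of 4 libraries. WT mice had the genotype Notch2f/f, and Notch2-mKO mice had the genotype Mlc1fCre/+;Notch2f/f, so the floxed Notch2 alleles were shared by all groups. Cre under the Mlc1f locus is active in skeletal muscle fibres, so other cells of the muscle keep their Notch2 alleles. Each genotype has a control group, an unloading group whose hindlimbs were suspended for 7 days, and a diabetes group taken 14 days after 1 intraperitoneal dose of 150 mg/kg streptozotocin. Streptozotocin is a toxin of the insulin-producing beta cells. Ages are not given in the labels, which also do not say that the replicates are separate animals, so p-values measure the spread between these libraries and part of it may be technical.

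Mitochondria keep their own ribosome, which translates the few proteins encoded in mitochondrial DNA, all of them core subunits of the respiratory chain and the ATP synthase. Its proteins are encoded in the nucleus, made in the cytosol and imported, and they assemble on ribosomal RNAs transcribed from mitochondrial DNA. Some have counterparts in bacterial ribosomes (47 of the genes here), and others arose with mitochondria (28 of them). Muscle is rich in mitochondria, and disuse and insulin lack are both known to reduce its oxidative capacity.

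Library totals ran from 33112459 to 56369917 estimated counts, and the 76 genes together took 0.2503 to 0.368% of each library. Muscle fibre markers (Ckm, Acta1, Myh4, Tnnt3 and Actn3) were at 17218 CPM or above in every library, where CPM is the count scaled to a common library total with TMM factors. Notch2 itself was low in this whole tissue and its level did not separate the genotypes. It was 1.84 ± 0.0680 CPM in WT controls and 1.87 ± 0.584 CPM in Notch2-mKO controls (SD, n = 4), with counts from non-muscle cells included, so it gives no check of the labels. Replicate 1 of unloaded Notch2-mKO muscle stood apart, with a TMM factor of 1.28 where the other 23 libraries lay between 0.861 and 1.11. In bulk tissue, fewer mitochondria-rich fibres and less RNA per fibre cannot be told apart.

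The stretches of DNA just before the start sites of genes that carry the findings below are shown to place them. Sequences and start sites are RefSeq's for GRCm38.p6, and each line runs 5′ to 3′ on the gene's strand. Capitals mark a match to 1 of 5 short motifs searched on either strand: GCGCATGCG for NRF1, CCGGAAG for ETS factors, AAGATGGCG for YY1, TCAAGGTCA for ERR receptors and CACGTG, the E box. The first 3 lines show the 150 bases before the start site: for Mrps36, the gene lowered in each treatment of each genotype, chr13:100744660-100744809 on the minus strand, for Mrps16, chr14:20393635-20393784 on the minus strand, and for Mrpl34, the largest fall, chr8:71464776-71464925 on the plus strand.
Mrps36: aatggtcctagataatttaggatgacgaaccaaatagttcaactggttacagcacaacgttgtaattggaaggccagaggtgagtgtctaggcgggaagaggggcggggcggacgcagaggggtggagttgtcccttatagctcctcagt
Mrps16: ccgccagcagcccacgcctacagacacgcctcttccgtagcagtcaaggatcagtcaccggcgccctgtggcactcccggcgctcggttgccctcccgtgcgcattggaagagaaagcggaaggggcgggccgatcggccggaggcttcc
Mrpl34: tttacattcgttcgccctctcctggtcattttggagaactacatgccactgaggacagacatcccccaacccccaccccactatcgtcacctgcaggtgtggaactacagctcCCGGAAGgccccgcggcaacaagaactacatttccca
The next 3 lines show 30 bases around a match: for Mrps11, a gene that fell, chr7:78783013-78783042 on the plus strand (in an annotated exon of its divergent neighbour Mrpl46), for Mrpl9, a gene that rose, chr3:94443298-94443327 on the plus strand, and for Mrpl32, which also rose in unloading, chr13:14613105-14613134 on the minus strand. The stretch of Mrpl32 lies before RefSeq's start site but inside an exon that GENCODE M21 gives the same gene. The stretch of Mrpl9 lies before the start site used for its window. It is nevertheless inside the RefSeq gene, which begins at 94443154, and inside an exon that GENCODE M21 gives Mrpl9.
Mrps11: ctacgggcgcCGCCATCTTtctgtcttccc
Mrpl9: aggcgcagctGCGCATGCGCggggtccttc
Mrpl32: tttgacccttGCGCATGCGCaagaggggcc
Mrpl34 holds the ETS letters, Mrps11 the YY1 letters on the opposite strand, and Mrpl9 and Mrpl32 overlapping NRF1 matches on both strands, while the stretches of Mrps36 and Mrps16 hold none of the 5.

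Across the family, 67 of the 76 genes had a promoter window (250 bases before to 50 after the start) in the RefSeq table. NRF1 letters were in 7 windows, 10.4% of the family against 3.51% of the tested genes with a window and 1.81% of all promoters in the table. YY1 letters were in 8 (11.9%, against 3.07% and 1.48%) and ETS letters in 22 (32.8%, against 17.4% and 9.14%). The E box was in 5 (7.46%, against 10.3% and 7.24%), and the ERR letters were in 0, against 0.26% of tested genes and 0.407% of all promoters. In WT unloading the falls among genes with and without each set of letters were 3 of 7 and 29 of 60 for NRF1, 10 of 22 and 22 of 45 for ETS, 7 of 8 and 25 of 59 for YY1 and 2 of 5 and 30 of 62 for the E box. In WT diabetes they were 4 of 7 and 33 of 60 for NRF1, 10 of 22 and 27 of 45 for ETS, 7 of 8 and 30 of 59 for YY1 and 4 of 5 and 33 of 62 for the E box. With a trend of GC content and length removed (described further on), the YY1 counts were 2 of 8 and 18 of 59 in WT unloading and 3 of 8 and 17 of 59 in WT diabetes. Over all genes tested, 16.3% fell in WT unloading and 15.5% in WT diabetes. With the trend removed these shares were 10.8% and 9.65%. No difference between genes with and without a motif was tested. A match of letters is a description of the sequence and not a bound site.

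Per length of transcript, the family spanned a 117-fold range of level. Averaged over the 24 libraries, Mrpl42 was highest at 264.9 CPM per kb, followed by Mrps21 at 164 and Mrpl23 at 105 CPM per kb. Mrps35 and Mrpl19 were near the bottom, both at about the same level, 2.77 and 2.76 CPM per kb, and Mrpl47 was lowest at 2.26 CPM per kb. The median of the 76 genes was 20.3 CPM per kb. These levels rest on the length of the longest protein-coding transcript in GENCODE M21 and depend on it: Mrpl30 stood 12th at 59.3 CPM per kb, and 3rd at 157 CPM per kb when the median transcript length was used. Mrpl42, from a mitochondria-specific large-subunit gene, had 211, 196, 255 and 225 CPM in WT controls and 94.7, 157, 145 and 186 CPM after unloading. Its diabetic WT libraries had 186, 146, 99.7 and 171 CPM. The lowest control was thus above the highest library of each treated WT group, and the treated libraries varied widely. The log2 fold change of Mrpl42 was -0.61 in WT unloading (edgeR adjusted p = 0.0168) and -0.56 in WT diabetes (edgeR adjusted p = 0.0284).

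**Figure D1:**
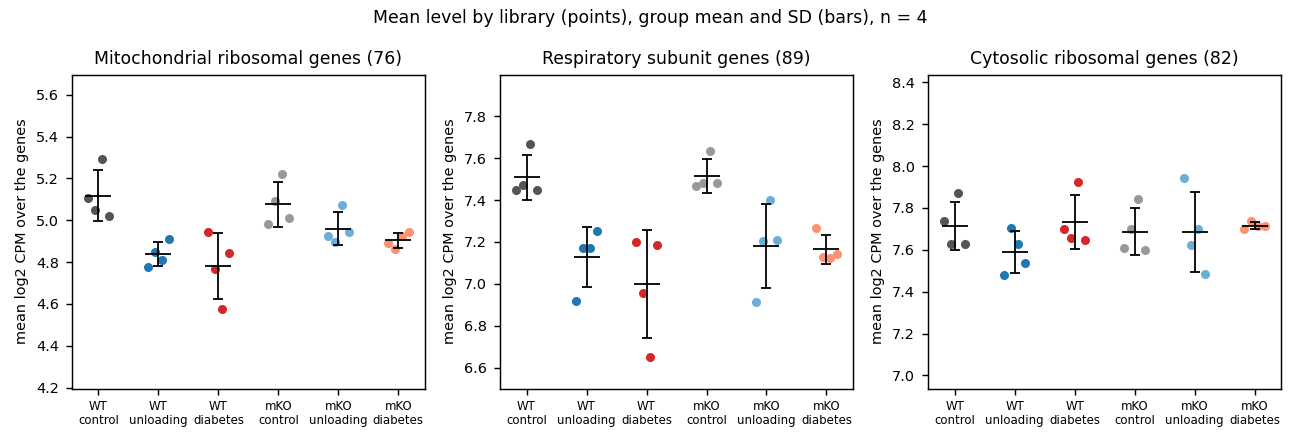
Mean log2 CPM of the genes of 3 families in each library (points, 6 groups of 4), with the group mean and SD (bars); each vertical axis covers 1.5 log2 units. The mitochondrial ribosomal genes lay between 5.02 and 5.29 in WT controls and between 4.78 and 4.91 after WT unloading, with no overlap, while the cytosolic ribosomal genes overlapped.

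In unloaded WT muscle, 39 of the 76 genes fell and 4 rose at an adjusted p below 0.05 in edgeR's quasi-likelihood test, adjusted over 13048 genes. Among all genes tested, 16.3% fell and 18.4% rose. The median log2 fold change of the family was -0.33, against -0.02 for all genes. These counts depended on the scaling. With a GC and length trend removed, 23 fell and 2 rose (median -0.15), where 10.8% of all genes fell and 15.8% rose. With limma on the authors' log2 values 9 fell and 9 rose (median -0.08), where 4.83% of all genes fell and 21.7% rose. The summed level of the family was 3388 ± 336 CPM in controls and 2676 ± 136 CPM after unloading (SD, n = 4). For 39 genes every unloaded library lay below every control library, against 16% of all genes tested, and for 3 genes every unloaded library lay above, against 17.3%. All 76 genes had passed the filter on low counts.

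Mrpl34, the counterpart of bacterial L34 and a protein of the large subunit, had the largest fall. It had 48.0, 38.0, 56.2 and 37.8 CPM in the WT controls and 19.3, 24.2, 21.5 and 23.8 CPM after unloading. No unloaded library came near a control, and the log2 fold change was -1.02 (SE 0.137, edgeR adjusted p = 7.40e-06). Mrpl48, a mitochondria-specific large-subunit protein, went from 60.2, 54.3, 61.1 and 56.8 CPM to 30.2, 34.7, 38.1 and 45.9 CPM, a log2 fold change of -0.64 (edgeR adjusted p = 0.00308). Mrps11, the counterpart of bacterial S11, went from 14.2, 18.5, 21.4 and 17.4 CPM to 9.52, 12.3, 11.6 and 12.6 CPM, also -0.64 (edgeR adjusted p = 0.00256). Each of these genes had all its unloaded libraries below all its controls.

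Mrpl12 belongs to the stalk of the large subunit that recruits translation factors, and its protein is also known to bind the mitochondrial RNA polymerase. It had 117, 113, 156 and 116 CPM in WT controls and 64.6, 84.3, 84.6 and 90.5 CPM after unloading. The groups did not overlap, control replicate 3 stood above the other controls, and the log2 fold change was -0.63 (SE 0.120, edgeR adjusted p = 0.000264). Mrps6, the counterpart of bacterial S6, fell by 0.62 on the log2 scale (edgeR adjusted p = 0.00257), although its groups overlapped: the lowest control had 8.83 CPM and the highest unloaded library 9.17 CPM. Mrpl45 is known to hold the ribosome to the inner membrane, and it fell by 0.51 on the log2 scale (edgeR adjusted p = 0.00239). Mrpl3, the counterpart of bacterial L3, fell by 0.53 (edgeR adjusted p = 0.00667), and Mrps2, the counterpart of bacterial S2, fell by 0.53 on the same scale (edgeR adjusted p = 0.00159). Mrps12, the protein of the decoding centre, had a log2 fold change of -0.40 (edgeR adjusted p = 0.0269), which lost its call without WT control replicate 3 or without any 1 of unloaded replicates 1, 2 and 3, and was 0.0037 with the trend removed. With limma on the authors' log2 values the calls of Mrps6, Mrpl3, Mrps2 and Mrps12 were lost in WT unloading. Those of Mrpl34, Mrpl48, Mrps11, Mrpl12 and Mrpl45 were kept.

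The 4 genes that rose were all of the large subunit. Mrpl50, a mitochondria-specific protein, had 12.6, 15.2, 12.1 and 16.1 CPM in WT controls and 20.1, 22.3, 18.5 and 20.3 CPM after unloading. Every unloaded library was above every control, with a log2 fold change of 0.53 (SE 0.122, edgeR adjusted p = 0.00154). Mrpl9, the counterpart of bacterial L9, had 17.7, 19.2, 22.5 and 18.6 CPM in controls and 33.9, 27.2, 25.9 and 23.7 CPM after unloading, a log2 fold change of 0.50 (edgeR adjusted p = 0.0116). Without unloaded replicate 1, its highest library, the fold change was 0.39 and the adjusted p in edgeR was 0.0604. Mrpl32, whose protein is cleaved by the m-AAA protease before it joins the ribosome, had a log2 fold change of 0.34 (edgeR adjusted p = 0.0361). Mrpl1, of the L1 stalk, had 0.29 (edgeR adjusted p = 0.0353). The calls of Mrpl32 and Mrpl1 were each lost in 5 of 8 fits that left out 1 library.

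In diabetic WT muscle, 45 of the 76 genes fell and 1 rose, where 15.5% of all genes tested fell and 17.8% rose. The median log2 fold change of the family was -0.38, against -0.01 for all genes, and the summed level was 2599 ± 273 CPM (SD, n = 4). With the trend removed 22 fell and 3 rose (median -0.16), where 9.65% of all genes fell and 14.1% rose. With limma on the authors' log2 values 8 fell and 8 rose (median -0.11), where 3.1% of all genes fell and 18.1% rose. This comparison uses the same WT control libraries as the unloading comparison, so the 2 are not independent. For 39 genes every diabetic library lay below every control, against 14.1% of all genes, and for 1 gene every diabetic library lay above, against 15.9%. Replicate 3 was the lowest diabetic library, with a mean log2 CPM of 4.57 over the family where the other 3 lay between 4.77 and 4.94.

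Mrpl54, a mitochondria-specific large-subunit protein, had the largest fall in diabetes. It had 65.9, 61.0, 79.1 and 55.7 CPM in WT controls and 43.5, 36.9, 29.9 and 39.1 CPM in diabetes, with no overlap and a log2 fold change of -0.81 (SE 0.130, edgeR adjusted p = 6.69e-05). Mrps11 followed with 13.0, 9.87, 8.36 and 11.2 CPM in diabetes and a log2 fold change of -0.75 (edgeR adjusted p = 0.000676). Mrpl48 had 47.0, 35.2, 22.1 and 35.0 CPM, a log2 fold change of -0.74 (edgeR adjusted p = 0.00109), with replicate 3 again lowest. In each case all diabetic libraries were below all controls.

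Mrps16, the counterpart of bacterial S16, had 37.0, 36.6, 41.8 and 32.1 CPM in WT controls and 25.7, 20.4, 20.3 and 24.8 CPM in diabetes (log2 fold change -0.69, edgeR adjusted p = 0.00015). Mrps2 had 22.7, 17.2, 26.3 and 18.6 CPM in WT controls and 12.9, 13.6, 12.5 and 13.8 CPM in diabetes (log2 fold change -0.68, edgeR adjusted p = 0.000194). The diabetic libraries of Mrps2 were close together and all below the controls. Mrpl34 fell by 0.59 on the log2 scale (edgeR adjusted p = 0.00168) and Mrpl12 by 0.50 (edgeR adjusted p = 0.0024). With the trend removed Mrpl34 (-0.05) and Mrpl12 (-0.12) were not called in WT diabetes. Mrps12 and Mrpl3 fell as well, by 0.48 and 0.42, and Mrpl45 did not pass the test (log2 fold change -0.26, edgeR adjusted p = 0.111). The call of Mrps12 was lost without WT control replicate 3 and with the trend removed (-0.02, edgeR adjusted p = 0.911), and that of Mrpl3 without any 1 of WT control replicates 1 and 3 and diabetic replicates 2 and 3. The gene that rose was Mrpl50, at 20.2, 20.6, 18.7 and 23.8 CPM, all above the controls (log2 fold change 0.57, edgeR adjusted p = 0.000945). With limma on the authors' log2 values the calls of Mrpl48, Mrpl12, Mrps12 and Mrpl3 were lost in WT diabetes. Those of Mrpl54, Mrps11, Mrps16, Mrps2 and Mrpl50 were kept.

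**Figure D2:**
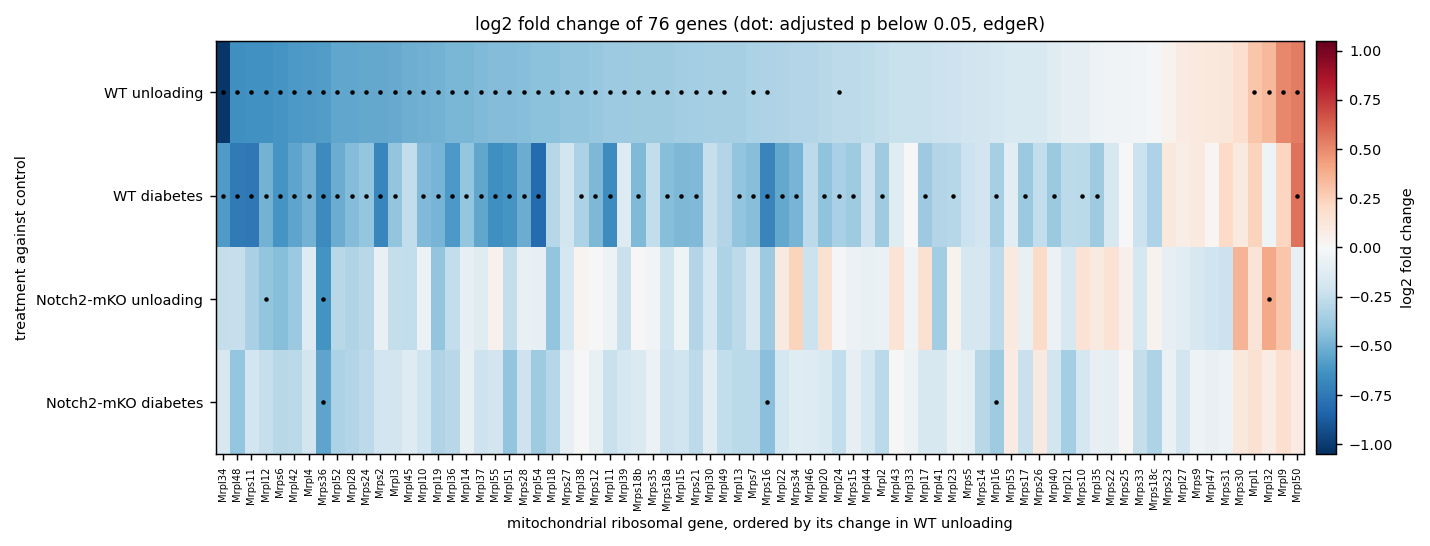
Log2 fold change (colour) of each of the 76 genes (horizontal axis, ordered by WT unloading) in the 4 comparisons of a treatment with its controls (vertical axis); a dot marks an adjusted p below 0.05 in edgeR. The WT rows hold 43 and 46 dots and the Notch2-mKO rows 3 each.

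In Notch2-mKO muscle few genes of the family passed the test. After unloading, 2 fell (Mrps36 and Mrpl12) and 1 rose (Mrpl32), where 3.2% of all genes fell and 4.11% rose. The median log2 fold change of the family was -0.10, against 0.02 for all genes. Without unloaded replicate 1, the library that stood apart, 2 fell and 0 rose, with a median of -0.12, where 5.18% of all genes were called in either direction. In diabetes 3 fell (Mrps36, Mrps16 and Mrpl16) and 0 rose, where 2.54% of all genes fell and 3.05% rose. The median here was -0.19, against -0.01 for all genes, and 67 of the 76 log2 fold changes were below 0. For 27 genes every diabetic library lay below every Notch2-mKO control (9.18% of all genes did), and for 8 genes every unloaded library did (6.23%). Every library lay above the controls for 0 genes in diabetes (8.65% of all genes) and for 1 in unloading (6.41%). The calls shared with WT under the same treatment, where no library is shared, were Mrps36 and Mrpl12 of the falls in unloading, 5.13% of the WT list and 100% of the Notch2-mKO list. In diabetes they were Mrps36, Mrps16 and Mrpl16, 6.67% and 100%. The WT falls by themselves held 51.3% of the 76 genes in unloading and 59.2% in diabetes.

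Mrps36 was the gene called lower in all 4 comparisons. In WT muscle it had 34.0, 39.1, 51.1 and 42.5 CPM in controls, 24.8, 29.9, 27.5 and 28.7 CPM after unloading and 30.8, 23.99, 22.6 and 27.8 CPM in diabetes. In Notch2-mKO muscle the controls had 44.5, 34.3, 47.1 and 39.1 CPM, the unloaded libraries 27.1, 26.4, 29.2 and 23.8 CPM and the diabetic ones 29.7, 29.8, 26.3 and 26.7 CPM. Every control, of either genotype, was above every treated library. The log2 fold changes were -0.59 (WT unloading, edgeR adjusted p = 0.000776), -0.67 (WT diabetes, 0.000281), -0.63 (Notch2-mKO unloading, 0.00592) and -0.55 (Notch2-mKO diabetes, 0.0143), with standard errors of 0.124 to 0.125. The last call was lost without Notch2-mKO control replicate 3 or diabetic replicate 4, and the other 3 were kept in all fits that left out 1 library. With limma on the authors' log2 values both WT calls were kept and both Notch2-mKO calls were lost. In that setting 0.00766% of all genes fell in Notch2-mKO unloading and 2.01% in Notch2-mKO diabetes. Its pseudogene rows were listed at 0 in every library.

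Mrpl12 had 115, 107, 131 and 111 CPM in Notch2-mKO controls and 92.1, 76.1, 97.5 and 83.8 CPM after unloading, without overlap (log2 fold change -0.41, edgeR adjusted p = 0.0373). In diabetes it had 102, 100, 98.8 and 93.1 CPM, again all below the controls, but did not pass the test (log2 fold change -0.24, edgeR adjusted p = 0.241). Mrps16 had 31.3, 40.9, 43.5 and 31.3 CPM in Notch2-mKO controls and 25.2, 28.3, 27.8 and 27.0 CPM in diabetes (log2 fold change -0.44, edgeR adjusted p = 0.0345). Mrpl16, the counterpart of bacterial L16, had a log2 fold change of -0.37 in Notch2-mKO diabetes (edgeR adjusted p = 0.0412), and Mrpl32 had 0.40 in Notch2-mKO unloading (edgeR adjusted p = 0.049). Apart from Mrps36 in unloading, the calls in Notch2-mKO muscle depended on single libraries. Mrps36 in diabetes lost its call in 2 of 8 fits that left out 1 library. Mrpl12 in unloading lost its call in 4 of 8, Mrps16 in diabetes in 6 of 8, and Mrpl16 and Mrpl32 in 7 of 8 each. In WT unloading, the smaller change of Mrps16 (-0.33, edgeR adjusted p = 0.0389) lost its call in 6 of 8.

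**Figure D3:**
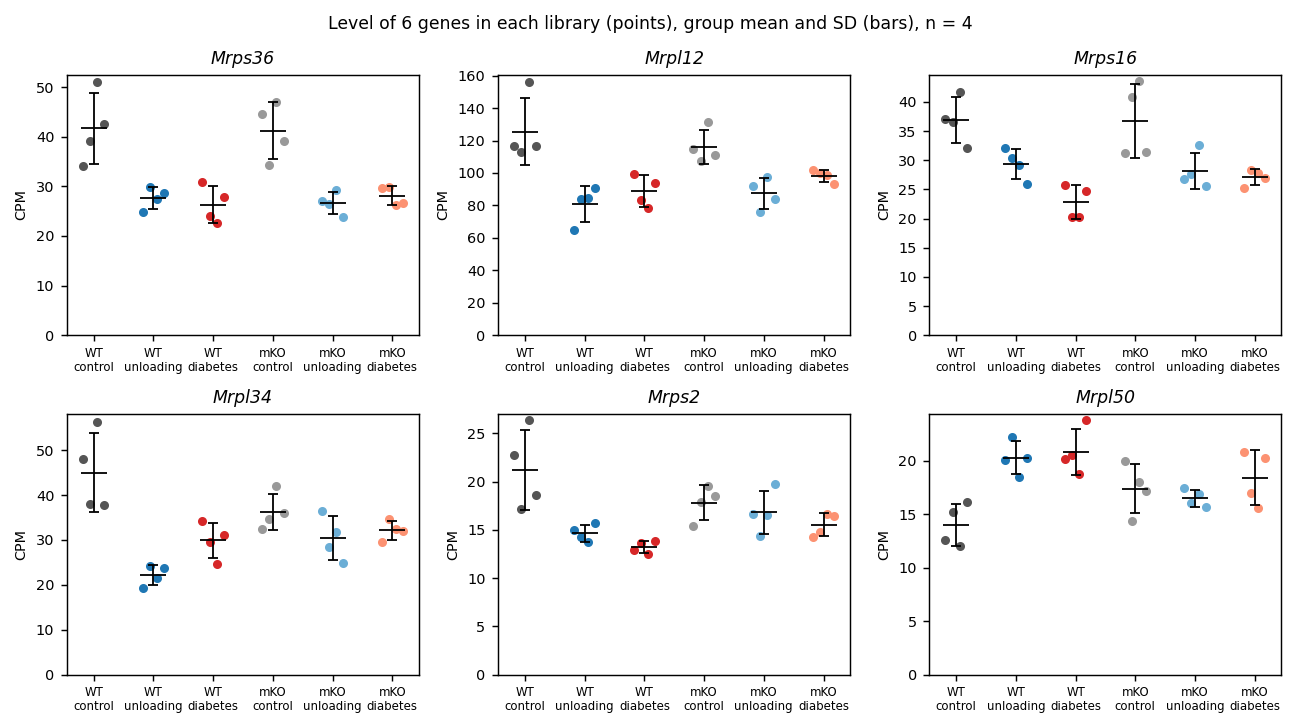
CPM (vertical axis, from 0) of 6 genes in each library (points, 6 groups of 4), with the group mean and SD (bars). Mrps36 is lower in every treated library of both genotypes, Mrpl34 spreads furthest between WT controls and WT unloading, and Mrpl50 is higher in the treated WT libraries.

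The direct comparison of genotypes called 0 of the 76 genes in controls, in unloading and in diabetes, and edgeR called 0 of all genes tested in each, 0% as background. Every Notch2-mKO library lay above every WT library for 2 genes in controls (1.58% of all genes), 10 in unloading (2.64%) and 4 in diabetes (1.78%), and below for 0 (1.2%), 1 (3.7%) and 0 (1.79%). At an unadjusted p below 0.05 there were 4, 14 and 6 genes of the family, and the smallest adjusted p values were 0.893, 0.388 and 0.872. The median log2 difference of Notch2-mKO from WT was -0.06 in controls, 0.14 in unloading and 0.12 in diabetes, against 0.01, 0.02 and 0.00 for all genes. With the trend removed these medians were -0.02, 0.06 and 0.02. The control value was 0.01 without WT control replicate 3 and -0.11 without Notch2-mKO control replicate 3, and the diabetes value ranged from 0.04 without WT diabetes replicate 3 to 0.18 without WT diabetes replicate 1. The test of the difference between the genotypes' responses also called 0 genes in each treatment, of the family and of all genes (0%). There, 20 genes of the family had an unadjusted p below 0.05 for unloading and 13 for diabetes. So the larger counts of falls in WT than in Notch2-mKO muscle are not shown to be a difference between the genotypes. DESeq2 called 0 genes of the family in the genotype comparisons and in the diabetes difference, and 1 in the unloading difference. Of all genes, DESeq2 called 3, 5 and 0 between genotypes in controls, unloading and diabetes, and 123 and 3 in the unloading and diabetes differences.

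The gene of the family that DESeq2 called in the unloading difference was Mrpl34. It had 32.4, 34.6, 41.9 and 35.9 CPM in Notch2-mKO controls and 36.4, 28.5, 31.7 and 24.8 CPM after unloading, groups that overlapped, where the WT groups lay far apart. Its difference in response was 0.77 log2 (SE 0.192, edgeR adjusted p = 0.122), and 0.76 in DESeq2 (adjusted p = 0.0334). Mrpl50 had the opposite sign, -0.61 (SE 0.173, edgeR adjusted p = 0.152): its Notch2-mKO controls had 20.0, 14.4, 18.02 and 17.2 CPM and its unloaded libraries 17.5, 16.0, 16.9 and 15.7 CPM. Mrpl55, a mitochondria-specific protein of the large subunit, had 50.9, 45.2, 57.4 and 43.6 CPM in WT controls and 38.6, 35.8, 35.2 and 34.3 CPM after unloading. In Notch2-mKO muscle it had 40.2, 45.5, 52.2 and 41.4 CPM in controls and 43.5, 47.5, 48.0 and 45.7 CPM after unloading, so the unloaded libraries of the genotypes did not overlap. Its difference in response was 0.49 (SE 0.151, edgeR adjusted p = 0.166). Without WT control replicate 4, edgeR called Mrpl34 (0.83), Mrpl50 (-0.69), Mrpl55 (0.54) and Mrps34 (0.62), where 429 of all genes were called. For Mrps36 the difference was -0.04 (SE 0.176) in unloading and 0.11 (SE 0.176) in diabetes. With the GC and length trend removed, edgeR called 0 genes of the family and 0 of all genes in the unloading difference. The family's median of that difference was then 0.0985, against 0.197 as counted.

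The balance of counts between AT-rich and GC-rich genes moved with the treatments in WT libraries. Whether this came from the muscle or from library preparation was not tested. The mean log2 CPM of 1295 AT-rich genes (under 42% GC) minus that of 2620 GC-rich genes (over 56%) was -1.38 ± 0.348 in WT controls, -0.28 ± 0.0772 after unloading and -0.31 ± 0.154 in diabetes (SD, n = 4). It was -1.03 ± 0.274, -0.68 ± 0.222 and -0.55 ± 0.154 in the matching Notch2-mKO groups. Across the 76 genes, which share their libraries and are not independent, GC content had a Pearson correlation of -0.52 with the log2 fold change in WT unloading and -0.43 in WT diabetes, and of -0.14 and -0.16 in Notch2-mKO. The correlation was 0.49 with the difference in unloading response and 0.47 with the difference in diabetes response. The family's median GC content (50.5%) was close to that of all genes tested (50.4%), but its transcripts were shorter, with a median of 1302 bases against 3142.

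With a trend of GC content and length removed within each library, the family had fewer falls but still more falls than rises. In WT unloading 23 genes fell and 2 rose, where 10.8% of all genes fell and 15.8% rose, and 18 genes of the family kept the same call in both fits, 17 of them falls. In WT diabetes 22 fell and 3 rose, where 9.65% of all genes fell and 14.1% rose, and 15 falls were shared by both fits. Mrps36 was called in each comparison (-0.54, -0.53, -0.63 and -0.48, in the order given above), Mrpl48 fell more (-0.86 and -0.96 in WT unloading and diabetes), and Mrps2 was -0.46 and -0.58. Mrpl34 was -0.54 in WT unloading (edgeR adjusted p = 0.000418) and -0.05 in WT diabetes, and it lost the second call. Mrpl54 (0.08 and -0.25), Mrps11 (-0.30 and -0.37), Mrps6 (-0.28 and -0.22), Mrps12 (0.0037 and -0.02) and Mrps21 (-0.0031 and -0.04) lost their calls in WT unloading and WT diabetes. Mrpl12 (-0.12), Mrpl42 (-0.45), Mrpl16 (-0.20) and Mrpl23 (0.05) lost theirs in WT diabetes. Of the rises, Mrpl9 kept its value (0.48), Mrpl50 was at 0.07 in unloading and 0.16 in diabetes with no call, and Mrpl32 (-0.17) and Mrpl1 (-0.27) turned negative in WT unloading. In WT diabetes Mrpl32 was called lower (-0.53, edgeR adjusted p = 0.0116). In Notch2-mKO unloading 5 genes fell and 1 rose (3.32% and 5.14% of all genes), Mrps16 among the falls (-0.41), and Mrpl32 lost its call (0.21). In Notch2-mKO diabetes 5 fell and 0 rose (2.04% and 2.54% of all genes).

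**Figure D4:**
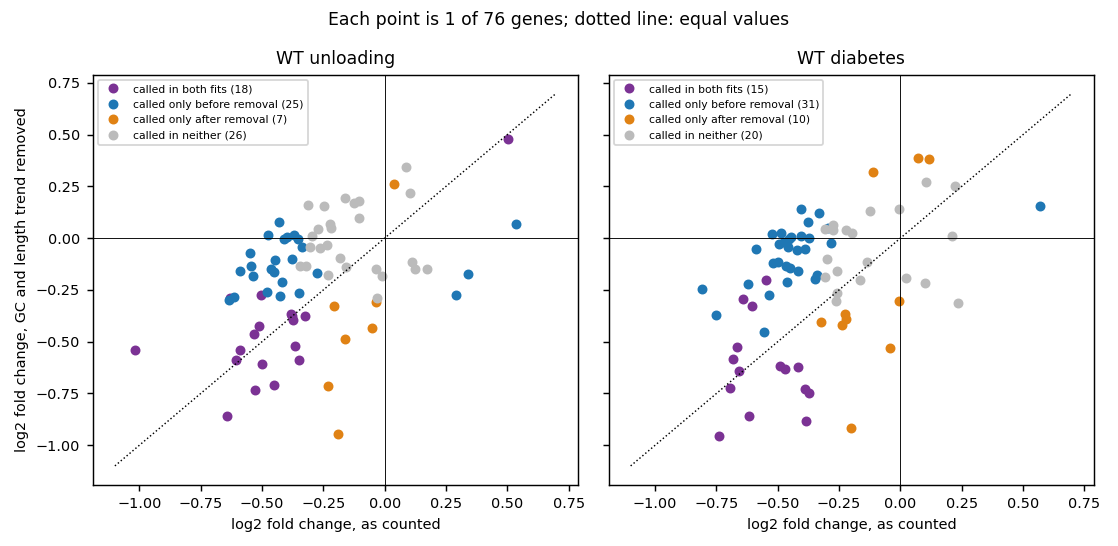
Log2 fold change of the 76 genes as counted (horizontal axis) and with the GC and length trend removed (vertical axis), in WT unloading and WT diabetes; colours mark in which fit a gene was called, and the dotted line marks equal values. In unloading 18 genes were called in both fits and in diabetes 15, and many points lie above the line, closer to 0 after removal.

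Both subunits were lowered in WT muscle. In WT unloading 26 of 49 large-subunit genes fell and 4 rose (median -0.35), and 12 of 26 small-subunit genes fell and 0 rose (median -0.29). In WT diabetes 30 of 49 and 14 of 26 fell, with medians of -0.38 and -0.35. By origin, 25 of 47 genes with a bacterial counterpart and 13 of 28 mitochondria-specific ones fell in WT unloading. In WT diabetes these counts were 34 of 47 (median -0.40) and 10 of 28 (median -0.26). Over all genes tested, 16.3% fell and 18.4% rose in WT unloading, and 15.5% fell and 17.8% rose in WT diabetes. No difference between these classes was tested.

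Proteins of the same ribosome that go by other symbols were also lower in WT muscle. Of 7 such genes 4 fell in WT unloading, 4 in WT diabetes, 0 in Notch2-mKO unloading and 1 in Notch2-mKO diabetes, and 0 rose. Over all genes tested, 16.3%, 15.5%, 3.2% and 2.54% fell and 18.4%, 17.8%, 4.11% and 3.05% rose, in the same order. Ict1, a peptidyl-tRNA hydrolase built into the large subunit, fell in WT unloading (-0.63, edgeR adjusted p = 4.72e-05), in WT diabetes (-0.78, edgeR adjusted p = 1.09e-05) and in Notch2-mKO diabetes (-0.34, edgeR adjusted p = 0.0485). Gadd45gip1 fell by 0.42 in WT unloading and by 0.36 in WT diabetes on the log2 scale. Chchd1 fell by 0.49 in WT unloading, and Aurkaip1 by 0.51 in WT diabetes.

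Factors that build this ribosome and process its RNA had more falls than rises. Of 27 tested, 9 fell and 2 rose in WT unloading, 7 fell and 1 rose in WT diabetes, 3 fell in Notch2-mKO unloading and 1 in Notch2-mKO diabetes. The falls were 33.3%, 25.9%, 11.1% and 3.7% of these factors, where 16.3%, 15.5%, 3.2% and 2.54% of all genes fell. The WT rises were 7.41% and 3.7%, where 18.4% and 17.8% of all genes rose. The assembly factors Mpv17l2 (-0.70 in WT unloading, -0.63 in WT diabetes) and Mtg2, a GTPase (-0.68 and -0.65), fell. Mettl17 fell in WT unloading (-0.89) and in Notch2-mKO unloading (-0.84), and the rRNA methyltransferase Mrm1 fell in Notch2-mKO unloading (-0.71) and diabetes (-0.82). Gtpbp10, another assembly GTPase, rose by 1.22 in WT unloading and 1.37 in WT diabetes on the log2 scale (edgeR adjusted p = 0.00149 and 0.000606).

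Of 13 translation factors, 4 fell and 3 rose in WT unloading, 3 fell in WT diabetes, 2 fell in Notch2-mKO unloading and 0 in Notch2-mKO diabetes. The shares of all genes tested that fell were 16.3%, 15.5%, 3.2% and 2.54% in this order, and 18.4%, 17.8%, 4.11% and 3.05% rose. The ribosome recycling factor Mrrf fell in the first 3 of these comparisons (-0.52, -0.48 and -0.38), as did Taco1, the translational activator of the Cox1 subunit (-0.72, -0.49 and -0.75). Tufm, the elongation factor that brings tRNAs to the ribosome, fell in WT unloading (-0.33, edgeR adjusted p = 0.0194) and was -0.27, -0.23 and -0.17 in the other comparisons without passing the test. The release factor Mtrf1 rose in WT unloading (0.52). Of 17 mitochondrial aminoacyl-tRNA synthetases, which charge the tRNAs, 7 fell and 1 rose in each WT comparison, with 3 falls and 1 rise in Notch2-mKO unloading and 0 of either in Notch2-mKO diabetes. Vars2 fell by 0.82 and 0.58 in WT unloading and diabetes, Aars2 fell by 0.76 in WT unloading, and Tars2 fell by 0.66 in WT diabetes, while Iars2 rose by 0.62 in WT unloading.

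Genes that maintain and transcribe mitochondrial DNA had more rises than falls in WT muscle: of 10 tested, 4 rose and 1 fell in unloading and 4 rose and 0 fell in diabetes. Background shares over all genes were 18.4% rising and 16.3% falling in unloading, and 17.8% and 15.5% in diabetes. Tfam packages mitochondrial DNA and starts its transcription. It had 19.0, 23.97, 20.1 and 23.3 CPM in WT controls, 30.4, 32.9, 32.8 and 31.2 CPM after unloading and 32.7, 35.3, 27.8 and 34.7 CPM in diabetes. All treated WT libraries were above all WT controls, with log2 fold changes of 0.56 (edgeR adjusted p = 0.000138) and 0.59 (edgeR adjusted p = 0.000101). In Notch2-mKO muscle the changes of Tfam were 0.11 and 0.24 and did not pass the test. Lrpprc, which stabilises mitochondrial mRNAs, had 0.33 in WT unloading (edgeR adjusted p = 0.0288) and 0.32 in WT diabetes (edgeR adjusted p = 0.0371), and -0.08 and 0.05 in Notch2-mKO. Tfb2m rose by 0.52 and 0.46 and Ssbp1 by 0.51 and 0.39 in WT unloading and diabetes. The partner of Lrpprc, Slirp, fell in Notch2-mKO unloading (-0.56, edgeR adjusted p = 0.0375). The counts for these pathway genes are from the fit without trend removal.

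Set beside 2 other gene families, the mitochondrial ribosomal genes lay between them in WT muscle. Of 89 nuclear-encoded respiratory subunits, 52 fell and 2 rose in WT unloading (median -0.41) and 63 fell and 0 rose in WT diabetes (median -0.50). In Notch2-mKO muscle 19 of them fell in unloading (median -0.32) and 24 in diabetes (median -0.36), 0 rising in either. Of 82 cytosolic ribosomal genes, 10 fell and 2 rose in WT unloading (median -0.13), and 8 fell and 6 rose in WT diabetes (median 0.04). In Notch2-mKO muscle 2 cytosolic ribosomal genes fell in each treatment, with medians of 0.04 and 0.05. Over all genes tested, 16.3% fell and 18.4% rose in WT unloading, and 15.5% fell and 17.8% rose in WT diabetes. In Notch2-mKO muscle 3.2% fell and 4.11% rose in unloading, and 2.54% fell and 3.05% rose in diabetes. The differences between the families were not tested.

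Markers of other cells of the muscle moved with some of these groups, and their part in the changes was not tested. In WT unloading 16.3% of all genes were called lower and 18.4% higher, and in WT diabetes 15.5% and 17.8%. In Notch2-mKO unloading these shares were 3.2% and 4.11%, and in Notch2-mKO diabetes 2.54% and 3.05%. Summed fibroblast and tendon markers (5 genes) were 338 to 493 CPM in WT controls, 248 to 328 CPM after unloading and 255 to 328 CPM in diabetes, and 274 to 477, 220 to 316 and 265 to 300.2 CPM in Notch2-mKO. These 5 genes did not move together: 1 was called higher and 2 lower in each WT treatment. In each Notch2-mKO treatment 2 were called lower and 0 higher. Endothelial markers (5 genes) were 163 to 244 CPM in WT controls, 138 to 167 CPM after unloading and 147 to 188 CPM in diabetes, with 1 of 5 called lower in each WT treatment. Macrophage and leukocyte markers (6 genes) were 44.5 to 54.0 CPM in WT controls, 32.2 to 41.8 CPM after unloading and 40.9 to 51.2 CPM in diabetes. Of these 6, 3 were called lower in WT unloading, and in WT diabetes 1 was called higher and 1 lower. Smooth muscle and pericyte markers were 35.6 to 51.6, 47.9 to 68.6 and 55.0 to 82.6 CPM in the same 3 WT groups, with Acta2 listed at 0 in every library. Of the 3 tested, 1 was called higher and 1 lower in each WT treatment. Satellite cell markers summed to at most 3.74 CPM, adipocyte markers to at most 22.0 CPM and Schwann cell markers to at most 39.6 CPM in any library. In each WT treatment 1 of 3 satellite cell markers and 1 of 3 Schwann cell markers were called higher. The muscle fibre markers summed to 233275 to 283348 CPM in WT controls, to 168276 to 219225 CPM after unloading and to 183195 to 230741 CPM in diabetes, with 1 of 5 called lower in WT unloading (Acta1) and 2 of 5 in WT diabetes (Acta1 and Tnnt3). In Notch2-mKO muscle they summed to 220674 to 250789 CPM in controls and 202703 to 232501 CPM in diabetes. Replicate 1 of unloaded Notch2-mKO muscle had 127156 CPM, and the other unloaded libraries of that genotype 223386 to 238898 CPM. In Notch2-mKO muscle 1 of 5 was called lower in unloading and 0 in diabetes. Erythroid markers (4 genes tested) summed to 210 to 457 CPM in WT controls, 288 to 855 CPM after unloading and 247 to 329 CPM in diabetes, and to 177 to 382, 242 to 876 and 169 to 806 CPM in the same Notch2-mKO groups, with 0 of 4 called in any treatment comparison.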

How the data were processed

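Gene expression was measured by RNA sequencing in 24 libraries of frozen gastrocnemius, with RNA extracted by ISOGEN and RNeasy reagents and libraries made by a company, per the labels' protocols. The authors deposited 4 tables of 36172 RefSeq gene models, per the file headers. The submitters' processing notes name the build mm10. No aligner or counter is given in the sources used here, nor whether counting used strand, so reads of overlapping neighbours such as Mrps11 and Mrpl46, or of pseudogene copies, cannot be told apart. The tables hold estimated counts deposited by the authors and their log2 values, centred on the controls of the same genotype. The 8 control columns found in 2 tables were identical in both.

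Estimated counts were rounded and fitted with edgeR 4.0.16 in R 4.3.3 (TMM, filterByExpr, 1 coefficient per group, quasi-likelihood F test, Benjamini-Hochberg adjustment over 13048 genes, threshold 0.05). The fit was tested on simulated data. Alternatives were upper-quartile scaling, DESeq2 1.42.0, no filter, only the groups compared, limma 3.58.1 on the deposited log2 values, a replicate block, each library left out, and removal of a GC and length trend per library (mgcv 1.9.3, GENCODE M21). Trend removal with medians over transcripts was added after seeing the data. Deviations from the group mean were correlated between libraries of the groups compared. In WT unloading same-numbered replicates gave -0.0476 to 0.0176, and other pairs -0.0649 to 0.0457. Between genotypes in controls same-numbered replicates gave -0.0422 to 0.3264, with 2 of 4 above 0.1, and other pairs -0.3287 to 0.2892. Whether the numbers pair the libraries is not settled by this check, and the main fit did not pair them.

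The members, gene lists and tests were chosen with earlier results of these data known. Genes were named by rule: per treatment comparison the 5 largest called rises and falls, those called the same way in at least 3 treatment comparisons, any called between genotypes, Mrpl12, Mrps12, Mrpl3, Mrps2, Mrpl45 and Mrps36, the 3 highest and 3 lowest per length, up to 3 called genes per pathway list and comparison, and Tufm, Lrpprc and Tfam. Mrpl55, Mrps34, Mrpl30 and Mtrf1 were named after their values were seen, as were the 3 promoter stretches shown for their matches. The lowest mean count of a member was 334.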

Additional observations from a re-analysis of the deposited data

Results flagged for a closer look

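In 150 sets of 4 libraries (each named gene, and the family's sum, in each group), 4 held a library far from the other 3 by Dixon's test at the 95% level, and chance flags about 1 in 20 such sets. Mrpl12 in WT control replicate 3 was at 156.1 CPM, where the other WT controls had 113 to 117 CPM. Mrps21 in Notch2-mKO control replicate 3 was at 100.3 CPM against 88.8 to 88.9 CPM, and in Notch2-mKO diabetes replicate 4 at 80.6 CPM against 73.5 to 74.5 CPM. The summed level of the 76 genes in Notch2-mKO unloading replicate 3 was 3207 CPM, where the other 3 had 2874 to 2917 CPM. Without that library, 6 genes of the family were called lower in Notch2-mKO unloading in place of 2, and 486 of all genes in place of 418. Without WT control replicate 3, 26 genes were called lower in WT unloading in place of 39, and 34 in WT diabetes in place of 45. Calls over all genes, in either direction, were then 3686 in WT unloading, where the full fit called 2127 lower and 2395 higher. In WT diabetes they were 3382, where the full fit called 2027 lower and 2327 higher.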

How the results depend on the processing

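Counts of called genes among the 76 are given here for WT unloading, WT diabetes, Notch2-mKO unloading and Notch2-mKO diabetes, against 39, 45, 2 and 3 falls and 4, 1, 1 and 0 rises. With the GC and length trend removed there were 23, 22, 5 and 5 falls and 2, 3, 1 and 0 rises. Of all genes, 10.8%, 9.65%, 3.32% and 2.04% then fell and 15.8%, 14.1%, 5.14% and 2.54% rose. With medians over transcripts (added later) there were 28, 28, 4 and 5 falls and 2, 1, 1 and 0 rises. The shares of all genes were then 11.1%, 10.4%, 3.22% and 1.98% falling and 15.6%, 14.7%, 4.92% and 2.37% rising. limma on the authors' log2 values gave 9, 8, 0 and 4 falls and 9, 8, 0 and 1 rises. Under limma 4.83%, 3.1%, 0.00766% and 2.01% of all genes fell and 21.7%, 18.1%, 0% and 7.59% rose. In that scaling the median of all genes was at 0.07, 0.10, 0.06 and 0.03 log2, and the family's median was -0.08, -0.11, 0.02 and -0.06. The sign of the Notch2-mKO unloading median (-0.10 as counted) thus turned, with 40 of 76 genes above 0. Upper-quartile scaling and DESeq2 each gave 5 falls in both Notch2-mKO comparisons (4.19% and 2.97% of all genes, and 5.17% and 3.79%), and fitting only the groups compared gave 1 and 14 (1.26% and 5.97%). The rise of Mrpl32 in Notch2-mKO unloading (1 gene) became 0 with upper-quartile scaling, no filter, the replicate block or only the groups compared. With the replicate block 41 and 45 genes were called in WT and 2 in each Notch2-mKO comparison. Of all genes, the block called 33.5%, 32.2%, 5.59% and 3.74% in the same order. Block with trend removed gave 22 and 21 falls and 2 and 2 rises in WT. In that setting 10.5% and 9.11% of all genes fell and 15.3% and 13.5% rose. DESeq2 called 1 gene in the difference in unloading response, where it called 123 of all genes.

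Leaving out 1 library at a time gave 26 to 42 falls and 1 to 4 rises in WT unloading, 34 to 48 falls and 1 to 2 rises in WT diabetes, 1 to 6 falls and 0 to 1 rises in Notch2-mKO unloading, 0 to 4 falls in Notch2-mKO diabetes, and 0 to 4 genes in the difference in unloading response. The lowest counts of falls in WT came without WT control replicate 3 and the lowest count of rises in WT unloading came without unloaded replicate 1. Without Notch2-mKO control replicate 3 or diabetic replicate 4 there were 0 falls in Notch2-mKO diabetes. The share of all genes called in either direction moved as well in these fits. It was 28.2% to 36.3% in WT unloading, 25.7% to 34.4% in WT diabetes, 3.13% to 8.71% in Notch2-mKO unloading and 1.19% to 7.66% in Notch2-mKO diabetes. The 4 genes in the difference in unloading response came without WT control replicate 4, where 429 of all genes were called.

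Some single genes changed sign. In WT unloading, trend removal gave -0.17 for Mrpl32, -0.27 for Mrpl1 and 0.0037 for Mrps12 (with the replicate block -0.16, -0.27 and 0.0036; with medians over transcripts -0.26 for Mrpl32, -0.37 for Mrpl1, and -0.026 for Mrpl50). Mrps12 in Notch2-mKO diabetes was 0.11 with the trend removed, 0.11 with the block as well, 0.087 with medians over transcripts and 0.0555 in limma. In Notch2-mKO unloading it was -0.028 with upper-quartile scaling, -0.0101 in DESeq2, -0.0027 with the replicate block and -0.0535 to 0.058 without 1 library. limma gave 0.0046 for Mrpl45 in WT diabetes and 0.048 for Mrps2 in Notch2-mKO unloading. Beyond fewer libraries or a changed scaling, the cause was not tested.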
